A study of Drosophila melanogaster with 12 samples.

Results

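The larval carcass of Drosophila melanogaster is the opened body wall, a sheet of epidermis and cuticle with the segmental muscles attached to it. The transcripts of 2 control carcasses are described here, those of MhcGal4 larvae and of w1118 larvae. Each had 3 libraries, so 6 of the 12 libraries of the series stand behind the values. Both groups were chosen because they carry neither of the changes that the study made to Activin signaling.

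MhcGal4 larvae had the genotype tub-Gal80ts/+;MhcGal4/+. They carried 1 copy of the yeast activator Gal4 under the muscle promoter of Mhc and 1 copy of its temperature-sensitive inhibitor Gal80 under a tubulin promoter, with no target transgene named. They ate standard vial food and were moved to 30 °C for the last 12 h before RNA was taken. The w1118 larvae, a white-eyed laboratory stock that the study used as wild type, grew on yeast paste over apple-juice plates and had no treatment. All were late foraging larvae of the last instar, opened in HL3 saline to take the gut out. The labels give no sex for either group, and they do not say that libraries came from separate animals.

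The deposited tables give each gene 1 FPKM per group, a fragment count scaled to transcript length and to the mapped fragments, and no library of its own. No spread between replicates, SD or test can therefore stand beside a value, and read depth is unknown. The groups differ in food, temperature and genetic background and were tabulated separately, and these differences cannot be told apart. Ranks are therefore compared and no fold change between the groups is given; an FPKM is printed for each group as its own level. Rank 1 is the highest gene of a group, and a percentile rank of 100 is the highest and 50 the middle of the 13166 genes ranked. Words such as "higher" refer to 1 value per group.

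Larval body-wall muscle is built from repeated sarcomeres, in which myosin filaments slide along actin filaments under the control of troponin and tropomyosin. The epidermis secretes the cuticle, a layer of chitin fibres bound by families of small cuticle proteins, and renews it at each molt. Fat body, blood cells, trachea, motor nerve endings and oenocytes adhere to the same wall, and their RNA is sampled with it. In such bulk samples, fewer cells of a type and less RNA per cell cannot be told apart.

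Of the 13166 genes, 7761 (58.9%) reached 1 FPKM in MhcGal4 and 7703 (58.5%) did so in w1118, with 7462 in common. A level of 100 FPKM was reached by 721 genes (5.48%) in MhcGal4 and 777 genes (5.9%) in w1118. Across the 10148 genes above 0 in both, Spearman's rho of the levels was 0.963, a description across genes, which are not replicates. It was 0.973 between MhcGal4 and the baboACT group of the same experiment, and 0.964 between the smox mutant and w1118. Over all 6 pairs of the 4 groups it ran from 0.956 to 0.974. The highest value was that of w1118 and baboACT, which belong to different experiments.

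A few transcripts filled much of each carcass. In MhcGal4 the 10 highest genes held 17.7% of the summed FPKM and 86 genes held 50% of it. In w1118 the 10 highest held 33.1% and 48 genes held 50%. The highest gene of w1118 was CG42500, a locus of 344 bases on chromosome arm 3R (9977933 to 9978276; coordinates are those of the tables, whose build is not named). It had 8277 FPKM and rank 8 in MhcGal4, against 127339 FPKM and rank 1 in w1118, where it alone made up 13.5% of the sum. When loci under 500 bases were left out, the 10 highest genes held 16.5% in MhcGal4 and 16.4% in w1118, so the groups were then alike.

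The top of the list was made of cuticle, muscle filament and ribosomal transcripts. Lcp9, a larval cuticle protein, was rank 2 in both groups, with 19900 FPKM in MhcGal4 and 46236 FPKM in w1118. Lcp2, another larval cuticle protein, had rank 4 at 11387 FPKM in MhcGal4 and rank 3 at 34779 FPKM in w1118. CG34227, which has no name beyond its number, had rank 3 at 11446 FPKM in MhcGal4 and rank 4 at 28079 FPKM in w1118. These 3 genes were the only ones among the 5 highest of both groups.

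Among genes that were in the 20 highest of both groups, the others were muscle, energy, ribosomal or unnamed genes. Mlc1, the alkali light chain of myosin, had rank 7 (8429 FPKM) in MhcGal4 and rank 13 (6814 FPKM) in w1118. The troponin T gene up had rank 9 (8150 FPKM) in MhcGal4 and rank 16 (5442 FPKM) in w1118. Mlp60A, a muscle LIM protein, had rank 20 (4728 FPKM) in MhcGal4 and rank 9 (7978 FPKM) in w1118. Argk, the arginine kinase that buffers ATP in insect muscle, stood at rank 13 with 6806 FPKM in MhcGal4 and at rank 10 with 7895 FPKM in w1118. Mp20, a calponin-like muscle protein, held rank 15 in both, at 6460 FPKM in MhcGal4 and 5714 FPKM in w1118. Mf, the thick-filament protein myofilin, held rank 17 in both, at 5616 FPKM in MhcGal4 and 5080 FPKM in w1118. The ribosomal genes RpL41 and RpL39 and the unnamed gene CG32249 completed the genes common to both lists of 20, together with CG42500.

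The remaining entries were in the 20 highest of 1 group only. On the MhcGal4 side, Tm1, a tropomyosin gene, had rank 10 there and rank 21 in w1118. The gene l(2)efl, a small heat shock protein of the alpha-crystallin family, had rank 11 in MhcGal4 (7216 FPKM) and rank 30 in w1118 (3772 FPKM). The troponin I gene wupA and the tropomyosin gene Tm2 ranked 16 and 19 in MhcGal4, against 25 and 33 in w1118. The neighbours CG17325 and CG10570 on 2L, less than 10000 bases apart, ranked 6 and 18 in MhcGal4 and 73 and 66 in w1118. On the w1118 side, CG17105 had rank 125 (1433 FPKM) in MhcGal4 and rank 5 (21169 FPKM) in w1118. CG7296 had rank 185 in MhcGal4 and 20 in w1118, CG9877 had 77 in MhcGal4 and 8 in w1118, and the cuticle gene Cpr78E had 25 in MhcGal4 and 12 in w1118. Ef1alpha48D, the main translation elongation factor 1 alpha, had rank 21 in MhcGal4 and 18 in w1118. Most of these 1-sided entries were therefore within the 100 highest of the other group too. The exceptions were CG17105, CG7296 and the genes listed at 0 that are described next.

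**Figure D1:**
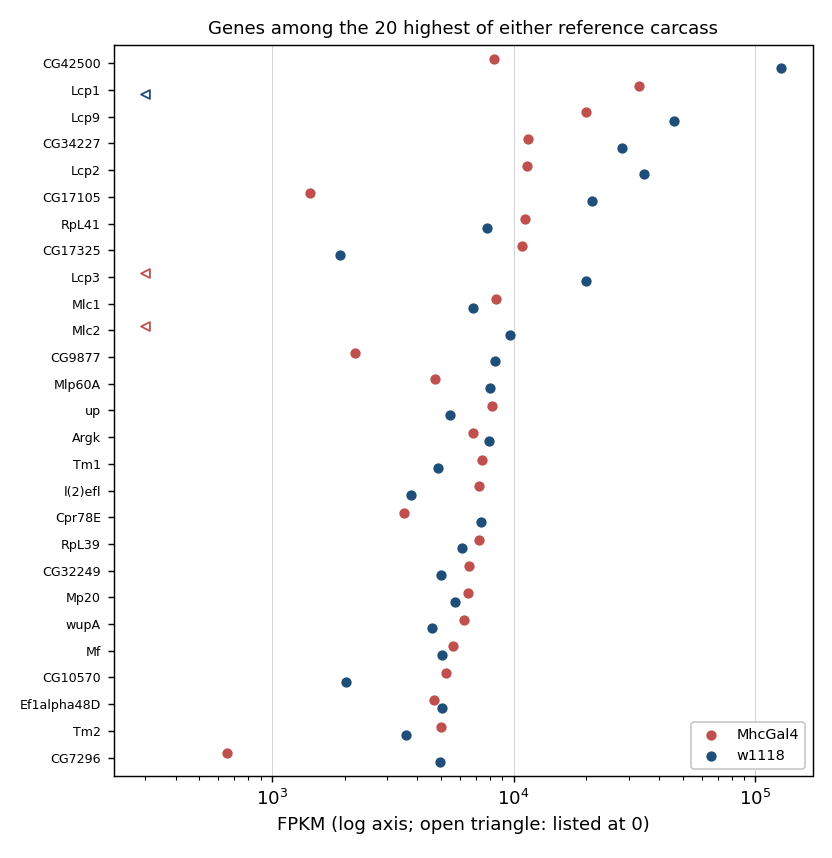
FPKM (log axis) of every gene among the 20 highest of MhcGal4 (red) or w1118 (blue), 1 value per group and gene. Open triangles at the left edge mark Lcp1 in w1118 and Lcp3 and Mlc2 in MhcGal4, which are listed at 0. CG42500 has 8277 FPKM in MhcGal4 and 127339 FPKM in w1118.

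Some of the most abundant muscle and cuticle genes are listed at exactly 0 in 1 group, which can be a failed estimate. Lcp1 (2R, 4318139 to 4318737) was rank 1 in MhcGal4, at 32967 FPKM, and is listed at 0 in w1118. Lcp3 (2R, 4322949 to 4323523) is listed at 0 in MhcGal4 and had 19981 FPKM in w1118. Each of these 2 zeros recurred in the other group of its own table, Lcp1 at 0 in smox and Lcp3 at 0 in baboACT. Mhc (2L, 16766737 to 16788766), the single muscle myosin heavy chain gene, is listed at 0 in MhcGal4 and had 2892 FPKM in w1118, but 3350 FPKM in baboACT and 0 in smox. Mlc2 (3R, 25997160 to 26000273), the regulatory light chain of myosin, is listed at 0 in MhcGal4 and had 9693 FPKM in w1118. Act57B, a main actin gene of larval muscle, and Lcp4 are listed at 0 in both groups. The other 5 genes listed at 0 in 1 group and at 100 FPKM or more in the other were small nucleolar RNAs. The gene Mhc, whose promoter drives Gal4 in MhcGal4 larvae, can therefore not be compared between the groups. Lcp1 and Lcp2, and Lcp3 and Lcp4, are pairs of closely related copies, so their counts are uncertain.

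Thin and thick filament genes of larval muscle were at the top of the ranking in both carcasses. The list of 15 had a median percentile rank of 99.75 in MhcGal4 and 99.76 in w1118, where the middle of all genes is 50. At 100 FPKM or more stood 12 of 15 in MhcGal4 and 14 of 15 in w1118, and every shortfall was a gene listed at 0. The shares of all genes at this level were 5.48% in MhcGal4 and 5.9% in w1118. The list held 7.25% of the summed FPKM in MhcGal4 and 5.76% in w1118. Without Mhc, Mlc2, Act57B, Lcp1 and Lcp3, an alternative chosen after seeing the data, the shares were 7.59% in MhcGal4 and 4.58% in w1118. Act87E, the larval muscle actin with a value, had rank 43 (2777 FPKM) in MhcGal4 and rank 40 (3016 FPKM) in w1118; its reads may be shared with other, near-identical actin genes. Prm, the thick-filament core protein paramyosin, had 2698 FPKM in MhcGal4 and 1995 FPKM in w1118. The troponin C genes did not stand together: TpnC73F and TpnC47D had 3190 and 3103 FPKM in MhcGal4, while TpnC25D had 365.6 FPKM. In w1118 these 3 genes had 3958, 1774 and 208.1 FPKM.

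Giant and Z-disc proteins spanned a wider range, with medians of 97.76 in MhcGal4 and 96.68 in w1118 over 13 genes. The Z-disc protein genes Mlp84B and Zasp66 had 1523 and 2720 FPKM in MhcGal4 and 1755 and 3756 FPKM in w1118. Actn, the alpha-actinin that crosslinks actin at the Z-disc, had 786.6 FPKM in MhcGal4 and 680.6 FPKM in w1118. The giant proteins stood in the middle and at the foot of the list on this per-length scale. The projectin gene bt was the middle gene of the 13, with 293.5 FPKM in MhcGal4 and 204.4 FPKM in w1118. The titin-related gene sls had 60.17 FPKM in MhcGal4 and 55.95 FPKM in w1118. Strn-Mlck, which encodes stretchin, was the lowest gene above 0, at 39.62 FPKM in MhcGal4 and 31.65 FPKM in w1118. Zasp67 is listed at 0 in both.

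Genes used by adult and flight muscle were near the floor. Of the 5 listed, 0 reached 1 FPKM in MhcGal4 and 1 did so in w1118, against 58.9% and 58.5% of all genes. The median percentiles were 23.74 in MhcGal4 and 20.9 in w1118. Act88F, the flight muscle actin, had 0.0199 FPKM in MhcGal4 and 0.0152 FPKM in w1118. Flightin (fln), a flight muscle thick-filament protein, had 0.0684 FPKM in MhcGal4 and 0.0814 FPKM in w1118. The one gene at 1 FPKM or more was the troponin C gene TpnC41C, at 0.673 FPKM in MhcGal4 and 4.71 FPKM in w1118. The larval filament genes with a value stood above 200 FPKM in both carcasses.

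**Figure D2:**
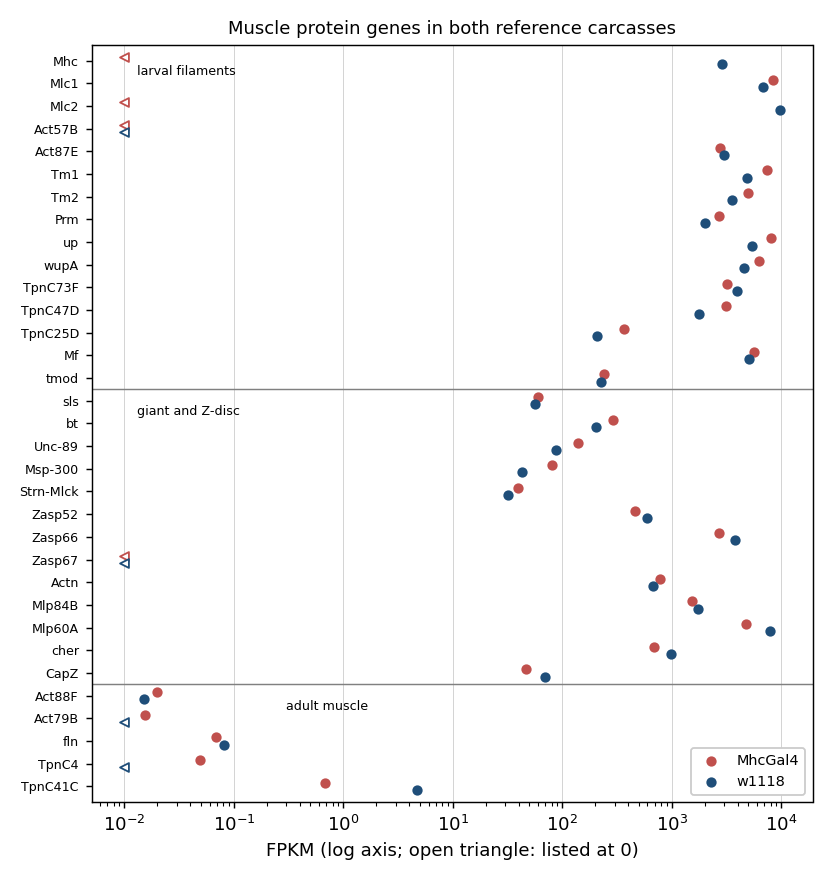
FPKM (log axis) of larval filament, giant and Z-disc, and adult muscle genes in MhcGal4 (red) and w1118 (blue), 1 value per group and gene. Open triangles mark genes listed at 0. Larval filament genes with a value lie between 208.1 and 9693 FPKM, and adult muscle genes lie below 5 FPKM.

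By list median, glycolytic enzymes and the list of muscle calcium, energy and excitability genes ranked below the filaments. Glycolytic RNA cannot be assigned to muscle in these bulk samples. All 12 glycolytic enzymes reached 1 FPKM in both groups and 11 of 12 reached 100 FPKM, with medians of 98.9 in MhcGal4 and 98.93 in w1118. The shares of all genes at 1 FPKM were 58.9% in MhcGal4 and 58.5% in w1118. At 100 FPKM they were 5.48% in MhcGal4 and 5.9% in w1118. Gapdh1 had rank 26 (3493 FPKM) in MhcGal4 and rank 28 (4087 FPKM) in w1118, and the aldolase gene Ald had rank 35 in MhcGal4 and 37 in w1118. The calcium pump of the sarcoplasmic reticulum, SERCA, had 1348 FPKM in MhcGal4 and 1521 FPKM in w1118. Its micropeptide regulators, the sarcolamban peptides, are encoded by pncr003:2L, a transcript first annotated as non-coding, which had 2586 FPKM in MhcGal4 and 2022 FPKM in w1118 (a gene named after its values were seen). The calcium release channel RyR was far lower, at 27.36 FPKM in MhcGal4 and 19.85 FPKM in w1118. Over the 11 singly named genes of calcium, energy and excitability the medians were 84.46 in MhcGal4 and 79.58 in w1118, and all 11 reached 1 FPKM in both.

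The channel, receptor and scaffold genes of the nerve-muscle junction given here lay between 3.09 and 79.99 FPKM. The glutamate receptor subunit GluRIIB had 6.71 FPKM in MhcGal4 and 7.90 FPKM in w1118, and the scaffold gene dlg1 had 50.21 FPKM in MhcGal4 and 41.03 FPKM in w1118. GluRIIC, a subunit that every receptor needs, had 79.99 FPKM (percentile 93.48) in MhcGal4 and 27.46 FPKM (percentile 84.01) in w1118. The subunits GluRIIA, GluRIID and GluRIIE share rows with other genes, so their reads cannot be told apart there. Voltage-gated channels were lower: the potassium channel Sh had 3.09 FPKM in MhcGal4 and 4.22 FPKM in w1118, and slo had 3.81 FPKM in MhcGal4 and 5.53 FPKM in w1118.

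Regulators of muscle identity and the proteins that anchor muscle to tendon were well above the middle. The list of 17 had medians of 89.21 in MhcGal4 and 83.36 in w1118, and 16 of 17 reached 1 FPKM in each. Among all genes, 58.9% did so in MhcGal4 and 58.5% in w1118. Mef2, the transcription factor that activates sarcomere genes, had 42.41 FPKM in MhcGal4 and 26.01 FPKM in w1118. The integrin subunits mys and if had 63.29 and 52.58 FPKM in MhcGal4, against 74.73 and 52.87 FPKM in w1118. Their linkers to actin were close by, with the talin gene rhea at 67.82 FPKM in MhcGal4 and 48.65 FPKM in w1118. The PINCH gene stck had 108.6 FPKM in MhcGal4 and 125.1 FPKM in w1118. The tendon cell factor sr, needed for muscle attachment sites, had 5.68 FPKM in MhcGal4 and 6.22 FPKM in w1118.

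Cuticle protein genes ranged from the very highest to the undetected, with many between 1 and 100 FPKM. Of 77 genes in the list, 33 reached 1 FPKM in MhcGal4 and 38 did so in w1118. Among all genes, 58.9% did so in MhcGal4 and 58.5% in w1118. The list medians were 35.23 in MhcGal4 and 39.91 in w1118, below the middle of all genes. Ranked only among genes at 1 FPKM or more in a group, the cuticle genes left had medians of 49.81 in MhcGal4 and 80.7 in w1118. Yet 12 genes in MhcGal4 and 14 in w1118 were at 100 FPKM or more, as were 5.48% and 5.9% of all genes. The list held 9.29% of the summed FPKM in MhcGal4 and 11.8% in w1118. Without the genes listed at 0 in a group, Lcp1 among them, the share in MhcGal4 was 5.03%. Counting every gene whose symbol begins with Lcp, Cpr, Ccp, Twdl or Acp65 gave 116 genes, of which 64 were under 1 FPKM in both groups. Genes with this symbol pattern outside the list, named after their values were seen, included Cpr47Ec, at 2821 FPKM in MhcGal4 and 2726 FPKM in w1118. Cpr60D had 2260 FPKM in MhcGal4 and 3076 FPKM in w1118.

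Cuticle genes below the top differed in both directions. Cpr49Af had rank percentile 99.51 (2298 FPKM) in MhcGal4 and 98.6 (764.8 FPKM) in w1118. The opposite order held for Cpr49Ac, at 241.9 FPKM in MhcGal4 and 3333 FPKM in w1118, and for Cpr67Fa1, at 125.5 FPKM in MhcGal4 and 2149 FPKM in w1118. Genes of the Lcp65A cluster on 3L lay lower in MhcGal4. Lcp65Ae had percentile 80.19 (20.15 FPKM) in MhcGal4 and 98.42 (621.9 FPKM) in w1118, and Lcp65Ag1 had 84.71 in MhcGal4 and 97.8 in w1118. Lcp65Ag3 was an exception, at percentile 96.54 in MhcGal4 and 96.2 in w1118. The Lcp65Ag genes are near-identical copies, so the division of reads among them is uncertain.

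Genes of the epidermis and of chitin synthesis and modification, called the chitin list here, were mostly high and alike in rank. Medians over its 19 genes, which are not all enzymes, were 94.3 in MhcGal4 and 95.17 in w1118. In MhcGal4 16 of these genes reached 1 FPKM, and 17 did so in w1118, against 58.9% and 58.5% of all genes. The chitin synthase gene kkv had 95.11 FPKM in MhcGal4 and 120.9 FPKM in w1118. The chitin deacetylases serp and verm had 459.6 and 767.4 FPKM in MhcGal4, and 439.5 and 793.6 FPKM in w1118. The chitin-binding protein gene obst-E had 1062 FPKM in MhcGal4 and 1770 FPKM in w1118. The epidermal transcription factor grh had percentile 91 in MhcGal4 and 90.24 in w1118. Genes of embryonic hairs and denticles were low: sha had 0.0940 FPKM in MhcGal4 and 0.0892 FPKM in w1118, and dyl had 0.101 FPKM in MhcGal4 and 0.132 FPKM in w1118.

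Tanning genes, which darken and harden new cuticle, were less alike. Over 8 genes the medians were 54 in MhcGal4 and 66.33 in w1118. Ddc, which makes dopamine, had percentile 81.15 (21.37 FPKM) in MhcGal4 and 97.19 (239.2 FPKM) in w1118. The beta-alanine synthesis gene b and the dopamine acetyltransferase gene speck also lay lower in MhcGal4, by 24.5 and 22.5 percentile points. In the other direction, ple, the tyrosine hydroxylase that supplies Ddc, had percentile 71.71 in MhcGal4 and 56.03 in w1118. The oxidase gene laccase2 was at 94.7 in MhcGal4 and 93.98 in w1118.

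Fat body transcripts were present but far below muscle and cuticle. The 7 defining markers were all above 1 FPKM, as were 58.9% of all genes in MhcGal4 and 58.5% in w1118. They summed to 1402 FPKM in MhcGal4 and 864.7 FPKM in w1118. The 14 larval muscle markers summed to 44732 FPKM in MhcGal4 and 46925 FPKM in w1118. These muscle sums cover different genes, since Mhc, Mlc2 and Act57B are listed at 0 in MhcGal4 and only Act57B in w1118. Larval serum protein genes, storage proteins made in bulk by fat body before pupariation, were among the highest of the list. The highest of the 7 markers had 459.6 FPKM in MhcGal4 and 235.3 FPKM in w1118. Lsp1beta had 459.6 FPKM in MhcGal4 and 208.4 FPKM in w1118, Lsp2 had 453.1 FPKM in MhcGal4 and 190 FPKM in w1118, and Lsp1alpha had 146.8 FPKM in MhcGal4 and 148.4 FPKM in w1118. Fbp1, the receptor through which these proteins are taken back up, lay the other way, at percentile 67.38 in MhcGal4 and 92.04 in w1118. The lipid droplet genes Lsd-1 and Lsd-2 had percentiles 63.41 and 91.26 in MhcGal4 and 51.22 and 82.39 in w1118. The list medians were 63.41 in MhcGal4 and 71.7 in w1118 over 19 genes.

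Oenocytes, hydrocarbon-making cells attached to the epidermis, were well represented. All 7 listed genes reached 1 FPKM in both groups, with medians of 92.79 in MhcGal4 and 91.51 in w1118. The shares of all genes at 1 FPKM were 58.9% in MhcGal4 and 58.5% in w1118. Cyp4g1, the cytochrome P450 that makes cuticular hydrocarbons, had rank 142 (1067 FPKM) in MhcGal4 and rank 208 (625.5 FPKM) in w1118. The fatty acid synthase gene FASN2 had 69.92 FPKM (percentile 92.79) in MhcGal4 and 15.02 FPKM (percentile 74.93) in w1118.

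Blood cell genes were present in both, at medians of 81.62 in MhcGal4 and 84.26 in w1118 over 18 genes. Their 7 defining markers summed to 248.7 FPKM in MhcGal4 and 385.1 FPKM in w1118. The prophenoloxidase genes PPO1 and PPO2, made by crystal cells, were the highest markers, at 60.97 and 92.26 FPKM in MhcGal4 and 96.61 and 151 FPKM in w1118. The plasmatocyte gene Hml had 21.83 FPKM in MhcGal4 and 20.66 FPKM in w1118. NimC1, a phagocytosis receptor of the same cells, had 6.89 FPKM in MhcGal4 and 24.32 FPKM in w1118.

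Lists for neural, tracheal, disc, heart and excretory genes had medians near the middle of all genes or below it, with a few members well above it. The 6 markers of neurons and glia summed to 11.9 FPKM in MhcGal4 and 12.5 FPKM in w1118, and the neuronal gene elav had 3.50 FPKM in MhcGal4 and 3.34 FPKM in w1118. List medians were 43.1 in MhcGal4 and 40.89 in w1118 for neurons and glia, and 55.53 in MhcGal4 and 55.69 in w1118 for trachea. They were 45.12 in MhcGal4 and 46.56 in w1118 for imaginal disc patterning genes, and 45.47 in MhcGal4 and 43.22 in w1118 for heart and nephrocytes. The highest tracheal gene, pio, had 127.6 FPKM in MhcGal4 and 139.6 FPKM in w1118. The 2 defining tracheal markers, btl and trh, were far lower, at 1.96 and 6.73 FPKM in MhcGal4 and 1.49 and 7.83 FPKM in w1118, printed lowest first. A row naming several genes holds 1 of them. Gs2, a glutamine synthetase listed with glia, had 66.75 FPKM in MhcGal4 and 99.56 FPKM in w1118. The cardiac and nephrocyte factor Hand had 10.32 FPKM in MhcGal4 and 7.26 FPKM in w1118. Malpighian tubule genes had medians of 47.68 in MhcGal4 and 38.42 in w1118, and their gene Picot had 6.07 FPKM in MhcGal4 and 26.28 FPKM in w1118. The 3 tubule markers Uro, Irk3 and CapaR summed to only 2.93 FPKM in MhcGal4 and 0.795 FPKM in w1118.

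Digestive genes were low in both carcasses, from which the gut had been removed. Over 35 midgut genes the medians were 23.45 in MhcGal4 and 10.12 in w1118, where 10.12 is the rank of genes listed at 0. The digestive protease genes Jon65Aiii and Jon65Aiv were exceptions, at 168.8 and 197.4 FPKM in MhcGal4 and 83.6 and 198.1 FPKM in w1118. The amylase gene Amy-p is listed at 0 in both groups. Salivary glue genes, made by the gland late in the last instar, summed to 52.7 FPKM in MhcGal4 and 494.6 FPKM in w1118 over 6 markers. Sgs7 had 26.72 FPKM in MhcGal4 and 265.6 FPKM in w1118, and Sgs3 had 9.15 FPKM in MhcGal4 and 120.2 FPKM in w1118. Whether fragments of the glands stayed in the carcass was not tested. Of the 170 singly named smell and taste receptor genes, 5 reached 1 FPKM in each group and 0 reached 100 FPKM. This gives a floor for genes that body wall should hardly use. The shares of all genes at 1 FPKM were 58.9% in MhcGal4 and 58.5% in w1118, and at 100 FPKM 5.48% and 5.9%.

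**Figure D3:**
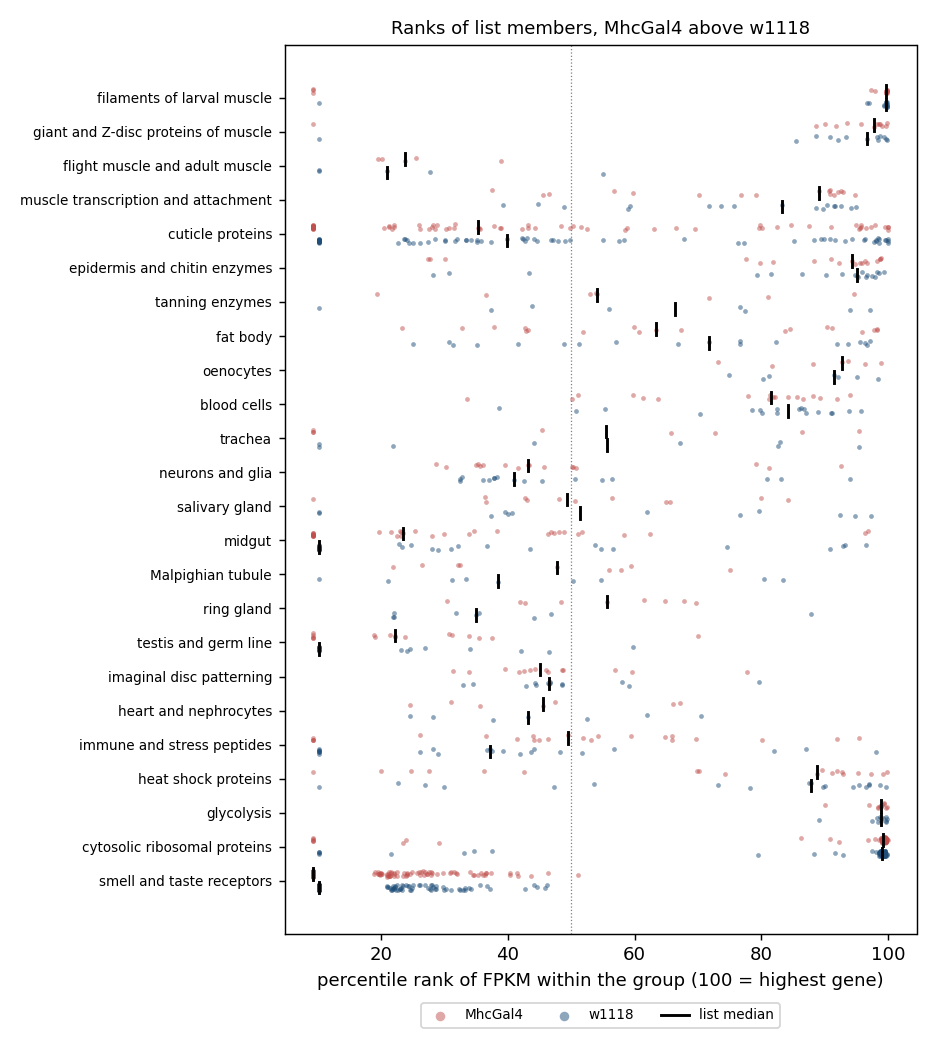
Percentile rank of FPKM within each group (x axis) for the singly named genes of 24 lists (rows), with MhcGal4 in red above w1118 in blue, 1 point per gene and a black bar at the list median. Points are spread vertically only to be visible. Larval filaments, glycolysis and ribosomal genes sit near 100, and points at 9.267 and 10.12 are genes listed at 0.

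Ribosomal protein genes were among the most abundant of both carcasses. The 87 singly named genes held 24% of the summed FPKM in MhcGal4 and 13.8% in w1118. Without CG42500 the shares were 24.3% in MhcGal4 and 16% in w1118. The list medians were 99.32 in MhcGal4 and 99.11 in w1118. Among the 100 highest genes were 52 of them in MhcGal4 and 35 in w1118, and 75 of the 100 genes were common to both groups. Of the 25 found only in the MhcGal4 top 100, 18 carried an RpL or RpS symbol. Of the 25 found only in w1118, 1 did. In their place w1118 had genes listed by number only, of which 24 stood in its top 100 against 10 in that of MhcGal4. Newer names were not looked up for all of them. RpL41 had rank 5 (11139 FPKM) in MhcGal4 and rank 11 (7772 FPKM) in w1118, and RpL32, a common normalizing gene, had rank 38 in MhcGal4 and 63 in w1118.

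A run of genes listed by number only, on 2L between 10681047 and 10686988, ranked lower in MhcGal4. CG17105, CG17107, CG7299 and CG7296 had ranks 125, 246, 219 and 185 in MhcGal4, against 5, 55, 77 and 20 in w1118. CG16884 and CG16885, also listed by number, share 1 locus in the tables and had ranks 224 and 228 in MhcGal4 and 38 and 32 in w1118. These genes were chosen after their values were seen. In MhcGal4 8 of the 100 highest lay within 10000 bases of another, and 0 to 12 did in the next 9 blocks of 100 genes. In w1118 12 of the 100 highest did, and 3 to 10 in the next 9 blocks. This description carries no test.

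Chaperone genes were read because MhcGal4 larvae had been at 30 °C. Members of the list lay on both sides. The small heat shock gene l(2)efl, described above, ranked higher in MhcGal4. The list held 1.35% of the summed FPKM in MhcGal4 and 0.619% in w1118. Most of this was l(2)efl alone, at 0.982% in MhcGal4 and 0.401% in w1118. Of the Hsp70 genes with a row of their own, Hsp70Bb was the highest, at 0.0973 FPKM in MhcGal4 and 0.116 FPKM in w1118. Other members ranked lower in MhcGal4. Hsp26 had percentile 74.21 (14.56 FPKM) in MhcGal4 and 89.73 (48.34 FPKM) in w1118, Hsp23 had 92.91 in MhcGal4 and 96.62 in w1118, and Hsp68 had 89.63 in MhcGal4 and 94.51 in w1118. The constitutive chaperone Hsc70-4 had rank 97 (1981 FPKM) in MhcGal4 and rank 171 (921.9 FPKM) in w1118. Over 19 genes the medians were 88.87 in MhcGal4 and 87.91 in w1118.

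Most genes kept a similar rank in both carcasses. Among the 8002 genes at 1 FPKM or more in at least 1 group, the median size of the difference was 2.41 percentile points, and the 5th to 95th percentiles of MhcGal4 minus w1118 ran from -10.2 to 9.19. A difference of 20 points or more was found for 96 genes (1.2%) higher in MhcGal4 and 125 genes (1.56%) lower in MhcGal4. Of the 96, 32 are listed at 0 in w1118, and of the 125, 21 are listed at 0 in MhcGal4. Such a difference is a size and not a test.

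**Figure D4:**
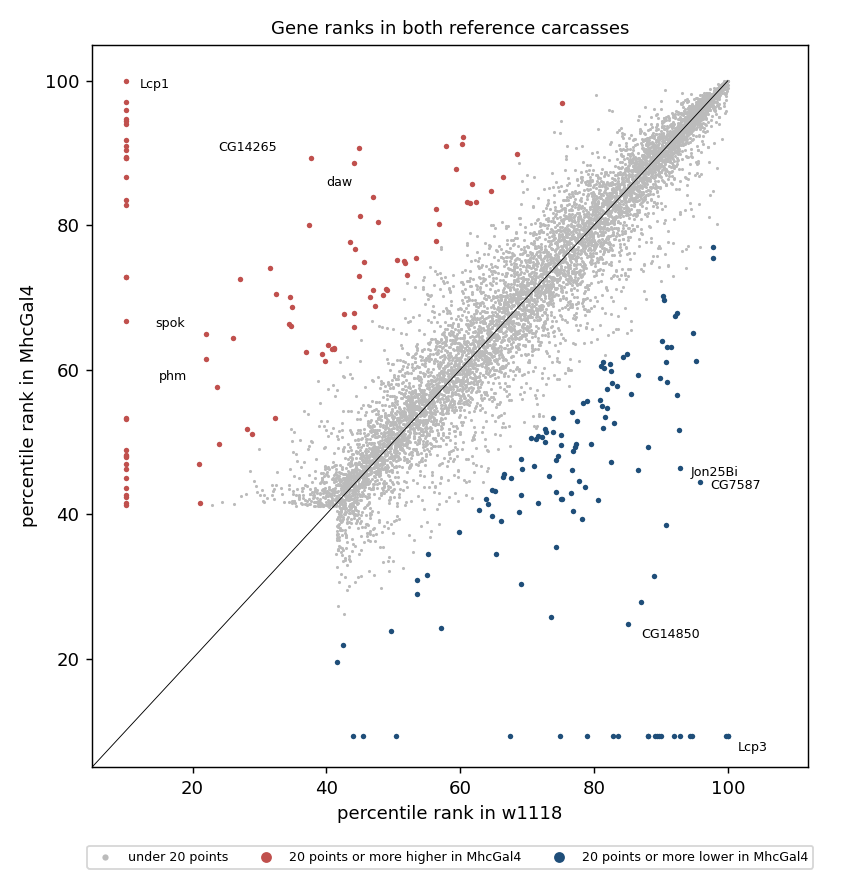
Percentile rank in MhcGal4 (y axis) against w1118 (x axis) for the 8002 genes at 1 FPKM or more in at least 1 group; the line marks equal rank. Red points lie 20 points or more higher in MhcGal4 (96 genes) and blue points 20 points or more lower (125 genes). The column of points at left and the row at the bottom are genes listed at 0 in 1 group.

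The largest differences among 4665 genes at 10 FPKM or more in a group and above 0 in both were in genes with few known roles. Higher in MhcGal4, CG14265 had percentile 89.27 (42.74 FPKM) there and 37.77 (0.506 FPKM) in w1118. It shares a table locus on X with ng3, a salivary glue-like gene at 80.01 in MhcGal4 and 37.35 in w1118. CG10912 had 50.6 FPKM in MhcGal4 and 1.67 FPKM in w1118, and CG9568 had 39.4 FPKM in MhcGal4 and 1.499 FPKM in w1118. CG10912 had 0.956 FPKM in baboACT and 0.516 FPKM in smox, and CG9568 had 0.898 FPKM in baboACT and 0.629 FPKM in smox. CG15236, CG13482, CG32581, the odorant-binding protein gene Obp46a and the mucin gene Muc11A also lay 35.4 to 45.5 points higher in MhcGal4. The one signaling gene was daw, which encodes the Activin-like ligand Dawdle, at percentile 83.91 (26.02 FPKM) in MhcGal4 and 47 (2.24 FPKM) in w1118. It had 13.85 FPKM in baboACT and 18.05 FPKM in smox.

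Lower in MhcGal4, CG14850 had 0.0601 FPKM in MhcGal4 and 30.51 FPKM in w1118, a difference of -60.3 points. CG15404 and CG13135 followed at -59.2 and -57.5 points. CG7606 and CG7587, neighbours on 3R, had 0.632 and 1.70 FPKM in MhcGal4 and 55.49 and 156.4 FPKM in w1118. This pair also differed within each experiment, with 41.97 and 124.4 FPKM in baboACT and 3.27 and 4.49 FPKM in smox. CG14850 had 0.224 FPKM in baboACT and 7.04 FPKM in smox. RefSeq names CG7587 Sgs5bis, after the glue gene Sgs5. Jon25Bi, a digestive serine protease gene, had 2.20 FPKM in MhcGal4 and 78.4 FPKM in w1118. CG18179, CG13177, CG3355 and CG6749 lay 38.9 to 47.7 points lower in MhcGal4. All of these genes are above 0 in both groups, but how many fragments stand behind a value under 1 FPKM is unknown.

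Several gene groups contributed to the 20-point differences. Of 17 immune and stress peptide genes at 1 FPKM or more in a group, 5 lay higher in MhcGal4 (Mtk, AttB, AttC, CecA2 and Def) and 0 lower. Among all 8002 such genes, 1.2% lay higher and 1.56% lower. Mtk and CecA2 are listed at 0 in w1118. These encode antimicrobial peptides, and their levels in MhcGal4 were modest, with AttB the highest at 20.08 FPKM against 5.32 FPKM in w1118. Listericin, the highest gene of this list, had 124.1 FPKM in MhcGal4 and 507.3 FPKM in w1118. Food, temperature and genetic background cannot be told apart here.

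Steroid hormone genes of the ring gland showed another pattern. Of 8 genes at 1 FPKM or more in a group, 3 lay higher in MhcGal4 and 0 lower, where 1.2% and 1.56% of all such genes did. The ecdysone synthesis genes phm and spok had 7.60 and 9.11 FPKM in MhcGal4 and 0.0232 and 0.0229 FPKM in w1118. The third was Akh, the adipokinetic hormone gene of the corpora cardiaca, at 10.67 FPKM in MhcGal4 and 1.498 FPKM in w1118. The ecdysone synthesis gene sro lay the other way, at 11.65 FPKM in MhcGal4 and 39.71 FPKM in w1118. The ring gland lies beside the brain and is not body wall, and how much of it stayed in each dissection was not tested.

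Of 39 cuticle genes at 1 FPKM or more in a group, 1 lay higher and 5 lower in MhcGal4. For this and the next lists, the shares among all such genes were 1.2% higher and 1.56% lower. The one higher was Lcp1 and 1 of the lower was Lcp3, both listed at 0 in the other group; the others were Lcp65Ac, Lcp65Af, Lcp65Ag2 and Cpr49Ab. Of 9 salivary gland genes, the glue genes Sgs3, Sgs4 and Sgs8 lay lower in MhcGal4, and ng1 and ng3 lay higher, although ng1 is listed at 0 in w1118. Of 11 midgut genes, Jon25Bi, Jon25Bii and betaTry lay lower in MhcGal4, and the lysozyme genes LysD and LysP lay higher. The filament list gave 2 genes lower, Mhc and Mlc2, which are the genes listed at 0. The giant and Z-disc, glycolysis, chitin, oenocyte and ribosomal lists gave 0 genes in either direction.

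Genes tied to sex and to the marker of transgenes were read as a check of the larvae. The male-specific RNAs roX1 and roX2, which coat the X chromosome for dosage compensation, had 119.2 and 36.26 FPKM in MhcGal4 and 63.86 and 6.23 FPKM in w1118. The 7 genes placed on Y heterochromatin were all under 1 FPKM, the highest at 0.224 FPKM in MhcGal4 and 0.0701 FPKM in w1118. The eye-color gene w, which is mutant in w1118 and is often carried as a marker by transgenes, had 2.42 FPKM in MhcGal4 and 0.0159 FPKM in w1118. Among testis genes, Mst87F had 11.81 FPKM in MhcGal4 and 2.11 FPKM in w1118. It made up nearly all of its 4 testis markers, which summed to 11.98 FPKM in MhcGal4 and 2.21 FPKM in w1118. Of 17 singly named testis and germ line genes, 1 reached 1 FPKM in MhcGal4 and 3 did so in w1118. Among all genes, 58.9% did so in MhcGal4 and 58.5% in w1118. The labels do not give the share of male larvae in each group, and its part in any difference was not tested.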

How the data were processed

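RNA was taken from larval carcasses with TRIzol and column cleaning and made into TruSeq libraries, per the labels' protocols. The authors deposited 1 table per experiment, each with 13650 rows, and per the file headers each row holds 1 FPKM per group. Cufflinks and Cuffdiff are named in the submitters' processing notes. For the aligner, annotation, genome build and the way 3 libraries became 1 value: not given in the sources used here. Columns per library numbered 0, so no precision can be attached to a value, and the number of reads is unknown.

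Rows of both tables were joined by gene name and locus. Rows naming several genes (366) and repeated names (133) were left out, which made 484 rows in all and left 13166 genes ranked within each group, ties averaged. Of the gene list entries, 784 had a row of their own, 40 were in rows naming several genes, 2 had a repeated name and 16 had no row, 15 of them mitochondrial. Table starts were raised by 1. Genes with a RefSeq length numbered 9919, and end minus start equalled it for 1179 of them (1 more base did so for 114). Loci overlap, since 34.3% of rows share one with another row. BDGP6 and RefSeq served for names only. Current symbols are printed for SERCA, RyR, Zasp67, FASN2, NimC1, PPO1, PPO2, speck and laccase2, which the tables list under older names.

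The genes named were the 20 highest of each group, the highest members and markers of each list, the 10 largest percentile differences each way among genes at 10 FPKM or more, and genes listed at 0 in 1 group and at 100 FPKM or more in the other. The groups and lists were chosen with earlier results of these data known. No test was run. The other 2 groups' values are given only beside genes described. The ranking was tested on simulated data. Python 3.11.15, pandas 2.3.3, NumPy 2.4.6, SciPy 1.17.1 and Matplotlib 3.10.9 were used.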

Additional observations from a re-analysis of the deposited data

How the results depend on the processing

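No paired analysis was possible because the tables hold 1 value per group, and for the same reason no replicate could be left out. Medians of the filament, chitin and ribosomal lists stayed within 5 points under the 3 rankings tried. Over all lists, 104 of 180 medians did and 76 moved. When genes under 1 FPKM in both groups were left out, the medians in MhcGal4 and w1118 were 49.81 and 80.7 for cuticle, 46.32 and 61.53 for fat body, and 18.11 and 22.3 for neurons and glia. The midgut median was then 28.52 in w1118. When genes listed at 0 in either group were left out, the medians in MhcGal4 and w1118 were 52.71 and 63.45 for fat body, 26.45 and 23.52 for neurons and glia, 31.53 and 33.58 for midgut, and 45.01 for cuticle in w1118. Ranking rows that name several genes gave a midgut median of 16.44 in w1118.

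Without loci under 500 bases the 10 highest genes held 16.5% of the summed FPKM in MhcGal4 and 16.4% in w1118. Without the genes listed at 0 (an alternative chosen after seeing the data), the cuticle share of MhcGal4 was 5.03%. Genes higher in MhcGal4 numbered 338 at 10 points, 55 at 30 points and 194 when ranked among genes at 1 FPKM or more. Genes lower in MhcGal4 numbered 414, 52 and 277 under these settings. Spearman's rho was 0.906 among genes at 10 FPKM or more in both, a narrower range of levels. Unknown depth limits what the lowest levels can show.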

Other observations

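Odorant-binding proteins, small secreted carriers best known from the antenna, were a mostly low family with a few abundant members. Of 40 singly named Obp genes, 12 reached 1 FPKM in MhcGal4 and 11 did so in w1118, where 58.9% of all genes did so in MhcGal4 and 58.5% in w1118. The medians were 23.75 in MhcGal4 and 17.36 in w1118. In each group 3 Obp genes reached 100 FPKM, as did 5.48% of all genes in MhcGal4 and 5.9% in w1118. Obp99b had 285.7 FPKM in MhcGal4 and 243.9 FPKM in w1118, and Obp83g had 278.7 FPKM in MhcGal4 and 340.3 FPKM in w1118. Obp56d had rank 543 (141.7 FPKM) in MhcGal4 and rank 44 (2859 FPKM) in w1118. It had 291 FPKM in baboACT and 325.5 FPKM in smox. The smell receptor genes themselves were near 0, with Or43b the highest Or gene at 2.23 FPKM in MhcGal4 and 1.91 FPKM in w1118.

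Of 74 singly named cytochrome P450 genes, 47 reached 1 FPKM in MhcGal4 and 41 did so in w1118. These counts were near the shares of all genes, 58.9% in MhcGal4 and 58.5% in w1118. Cyp4g1 was the only one at 100 FPKM or more. The next highest was Cyp9c1 in MhcGal4, at 76.68 FPKM there and 53.06 FPKM in w1118, and Cyp313b1 in w1118, at 51.15 FPKM in MhcGal4 and 68.89 FPKM in w1118. Of 49 at 1 FPKM or more in a group, 5 lay at least 20 percentile points higher in MhcGal4 and 1 lower, where 1.2% of all such genes lay higher and 1.56% lower. Cyp18a1, which inactivates ecdysone, had 54.58 FPKM in MhcGal4 and 6.57 FPKM in w1118. Genes of the small chromosome 4 were detected more often than those of the other arms: 81% of 84 genes reached 1 FPKM in MhcGal4 and 78.6% in w1118, and on the major arms 56.3% to 61.4% did.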
